A study of Mus musculus with 20 samples.

Results

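Aggrecan, Sox9 and the noncollagenous proteins of the cartilage matrix were followed in RNA-seq of mouse tibiae after axial loading with or without dexamethasone (DEX), a synthetic glucocorticoid. The 10 genes were chosen by name: Acan, Sox9, Matn1, Matn3, Matn4, Comp, Hapln1, Prg4, Chad and Ucma, and all 10 were found among the 54446 genes of the deposited count table. Acan, Sox9 and Matn3 are among 10 genes that the study had already selected with these mouse data for a diminished loading response, so these 3 are not an independent choice. The question was whether the genes chosen here all respond together to loading in vehicle-treated mice, and what becomes of that response under DEX. Every library came from a whole tibia of a 3-month-old male C57BL/6J mouse that carried no engineered allele. The vehicle-treated groups received water for injection under the skin over 5 days, and the DEX-treated groups received DEX at 1 mg/kg by the same route. In each treatment, the left tibia was loaded at -13 N with 40 cycles per session, and the right tibia was left unloaded. This gave 4 groups of 5 libraries: unloaded vehicle, loaded vehicle, unloaded DEX and loaded DEX. The labels place loading on days 1 and 3, whereas the study describes 3 sessions a week. The study dates both the final session and the freezing of the bones to day 5, with 4 hours between them. These sources differ, so the number of sessions and the time from last loading to harvest remain uncertain here. In the study's methods the right tibia of each mouse is the unloaded control, so the unloaded groups also came from mice that had a loaded limb.

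Cartilage matrix is a hydrated gel held by a collagen network. Acan encodes aggrecan, a proteoglycan whose chondroitin sulfate chains bind water, and Hapln1 encodes the link protein that fixes aggrecan to hyaluronan. Sox9 is the transcription factor that directs chondrocyte formation and drives many of the matrix genes, Acan among them. Matn1, Matn3 and Matn4 encode matrilins, which join matrix proteins into filaments. Comp encodes cartilage oligomeric matrix protein, a collagen-binding protein also made by tendon, and Chad encodes chondroadherin, a leucine-rich repeat protein that cells attach to. Prg4 encodes lubricin, the boundary lubricant of joint and tendon surfaces, and Ucma encodes a small secreted protein of growth plate cartilage. A tibia holds cartilage at its growth plates and joint surfaces, so these transcripts can come from bone ends, periosteum, tendon insertions or synovium as well as from cortical bone.

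Promoter windows are shown for Acan, Matn3, Matn4 and Chad, because Acan, Matn3 and Matn4 had mean levels above those without load in the vehicle groups and Chad a mean level below. Each window is the 250 bases before the start of transcription in RefSeq (GRCm38.p6), printed 5′ to 3′ on the strand of the gene. No letter is in capitals because neither searched motif occurred in these 4 windows.
Acan, chr7:79052976-79053225, plus strand: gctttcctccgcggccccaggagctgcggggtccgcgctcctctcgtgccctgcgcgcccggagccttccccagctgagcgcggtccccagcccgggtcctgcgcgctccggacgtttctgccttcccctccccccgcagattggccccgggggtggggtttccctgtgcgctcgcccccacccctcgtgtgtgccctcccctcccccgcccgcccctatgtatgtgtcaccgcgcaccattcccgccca
Matn3, chr12:8947679-8947928, plus strand: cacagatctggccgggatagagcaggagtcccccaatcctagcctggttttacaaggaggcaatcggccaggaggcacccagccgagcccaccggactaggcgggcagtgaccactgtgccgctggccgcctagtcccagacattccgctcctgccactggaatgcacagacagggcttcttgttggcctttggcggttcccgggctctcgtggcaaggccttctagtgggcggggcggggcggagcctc
Matn4, chr2:164405161-164405410, minus strand: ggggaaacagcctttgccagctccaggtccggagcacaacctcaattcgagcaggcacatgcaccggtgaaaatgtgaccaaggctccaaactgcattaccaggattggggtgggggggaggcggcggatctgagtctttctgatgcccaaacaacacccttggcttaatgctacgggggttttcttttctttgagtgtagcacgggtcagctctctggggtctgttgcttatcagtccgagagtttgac
Chad, chr11:94564797-94565046, plus strand: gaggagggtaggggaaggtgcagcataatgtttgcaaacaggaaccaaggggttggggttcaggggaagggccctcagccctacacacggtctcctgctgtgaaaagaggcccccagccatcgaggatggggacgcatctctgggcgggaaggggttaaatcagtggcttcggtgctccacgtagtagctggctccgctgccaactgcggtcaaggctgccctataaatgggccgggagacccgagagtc
The Acan window had a GC content of 74.4%, against 65.2% for Matn3, 60.4% for Chad and 54.4% for the Matn4 window printed here; a second Matn4 window, inside the gene (chr2:164404819-164405068), had 62.8%. The Acan window ends before the GENCODE start of the gene, because RefSeq places the start of transcription further upstream. The SOX core ACAAAG was searched on both strands and was absent from the 8 windows of the 7 genes that RefSeq promoters covered here, whereas 16.5% of 32851 windows of all genes held it. The glucocorticoid receptor half-site AGAACA, which does not overlap the SOX core, was found in 1 of these 8 windows, at -89 of Ucma, against 16.1% of all windows. These matches describe the letters of the windows and say nothing about binding.

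Library totals ran from 4641437 to 13032018 expected counts. Within the groups, squared differences between pairs of libraries were 8.11 to 90.3 times those of counting error. Levels are given as CPM (library-scaled counts) after TMM scaling over all 20 libraries, with mean ± SD. The vehicle libraries are numbered 1, 2, 4 and 5, and a further library in each group, whose number no sample label matched, is called unnumbered. Unloaded DEX library 4 was left out of the tests, except in alternative settings, which left 4 unloaded DEX libraries. Background reads are the summed CPM of 1965 olfactory and vomeronasal receptor genes, taken on library totals without TMM scaling. Loaded DEX library 4, which was kept, stood apart from the rest, with the lowest total (4641437) and the highest scaling factor (1.41). It also had background reads of 8880 CPM, against at most 3580 CPM in the others. Without it, DEX in loaded tibiae gave a log2FC of -3.12 for Acan (edgeR adjusted p = 0.00111), -1.50 for Sox9 (0.0120), -1.53 for Matn4 (0.0149) and -1.80 for Hapln1 (0.0519), loading under DEX had 0 of the 7 genes called, and the interaction log2FC was -2.15 for Acan (0.378). Osteoblast markers (8 genes) summed to between 4570 and 145000 CPM and osteocyte markers (8 genes) to between 730 and 2710 CPM in the 19 libraries, with no marker at 0 in all of them, so the label of bone held. Skeletal muscle markers summed to 6550 to 94500 CPM, and neutrophil markers to 4200 to 16700 CPM, so muscle and marrow RNA were also present.

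The order of the genes was taken from CPM per kilobase of exon, because longer transcripts give more reads. In unloaded vehicle tibiae, Chad stood at 99.9 ± 22.9, Comp at 77.8 ± 25.3 and Prg4 at 72.9 ± 14.3 CPM per kilobase (SD, n = 5 each). These 3 genes did not differ from each other beyond their spread. Acan followed at 10.6 ± 4.00 CPM per kilobase. Sox9 (2.52 ± 0.884), Matn4 (1.95 ± 0.243) and Hapln1 (1.61 ± 0.339) formed a lower set whose neighbours overlapped within their SD. Ucma (0.415 ± 0.319), Matn3 (0.278 ± 0.103) and Matn1 (0.0319 ± 0.0471) had few counts. In loaded vehicle tibiae the order of the leading genes was Comp (119 ± 51.6), Prg4 (98.7 ± 69.8), Chad (52.9 ± 21.0) and Acan (44.6 ± 22.6 CPM per kilobase). Acan, which stood far below Chad without load, was thus within the spread of Chad with load.

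**Figure D1:**
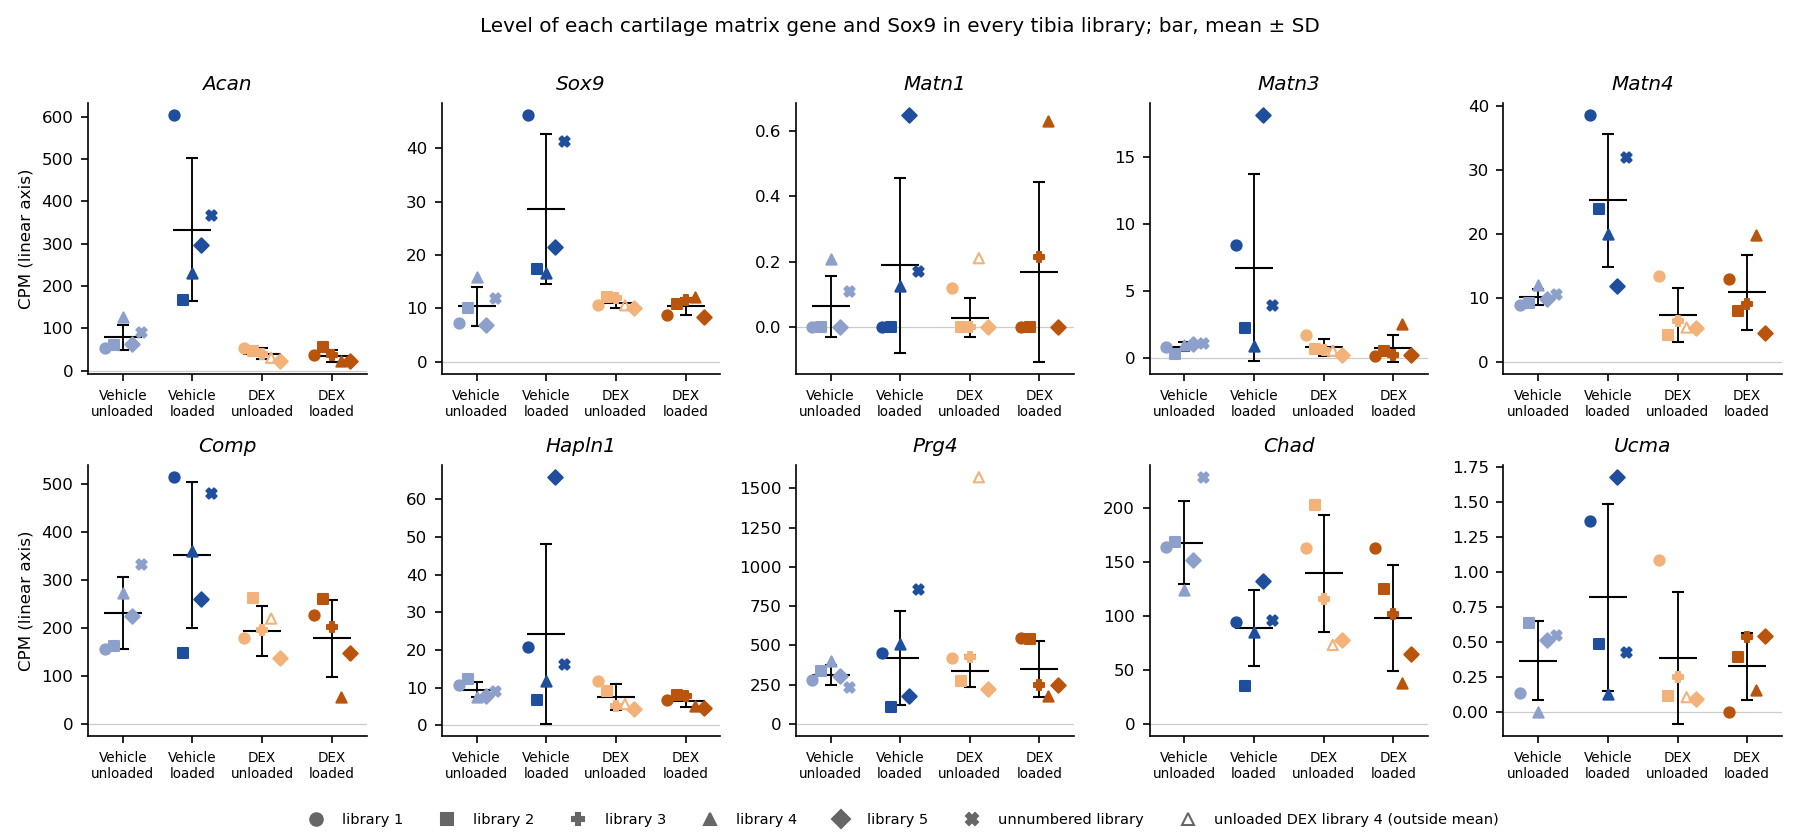
CPM of each gene (linear axes, a separate scale for each panel) in every library of the 4 groups; marker shapes give the library number, and bars give the mean ± SD. Acan in the 5 loaded vehicle libraries lay between 166 and 604 CPM, above all other libraries, whereas Chad lay between 34.8 and 133 CPM in loaded and between 124 and 229 CPM in unloaded vehicle libraries.

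Loading under vehicle did not shift the genes in a common direction. Of the 7 genes that passed the filter on low counts, Acan, Sox9, Matn4, Hapln1, Comp and Prg4 had a positive log2 fold change (log2FC) and Chad had a negative one, while 49.7% of all genes tested had a positive value. The log2FC ran from 2.05 for Acan to -0.94 for Chad, and the 95% intervals of these 2 genes did not overlap (1.29 to 2.81 for Acan, -1.60 to -0.29 for Chad), although the difference between genes was not itself tested. Matn1, Matn3 and Ucma were too low for the filter. With the edgeR quasi-likelihood test, 0 of the 7 genes had an adjusted p under 0.05, as did 0 of the 17982 genes tested (0%). At an unadjusted p under 0.05 there were 4 genes with a positive and 1 with a negative log2FC, where 3.9% and 5.96% of all genes tested met the same criterion. The DESeq2 Wald test, the test that the study used, called Acan, Sox9 and Matn4 higher, and 0.323% of all genes were called higher by it. In both directions it called 141 genes, which ran from 63 without unloaded library 5 to 482 without the unnumbered unloaded library. The loaded and unloaded values of Acan and Sox9 did not overlap, which held in the upward direction for 0.701% of all genes. The median log2FC was 1.29 over the 7 genes and 0 over all genes tested.

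Aggrecan and its link protein differed in how many libraries carried the difference. Acan (ENSMUSG00000030607.7, GRCm38 chr7:79053483-79115099, plus strand) stood at 54.4, 60.8, 126, 62.4 and 92.3 CPM in unloaded vehicle libraries 1, 2, 4, 5 and unnumbered. In the loaded libraries of the same order it stood at 604, 166, 230, 297 and 369 CPM. Every loaded library exceeded every unloaded library, with ratios to the unloaded mean from 2.10 in loaded library 2 to 7.63 in loaded library 1. The means were 333 ± 169 and 79.1 ± 29.9 CPM (SD, n = 5 each), and the log2FC was 2.05 (SE 0.330, edgeR adjusted p = 0.121; DESeq2 adjusted p = 1.09e-06). Over 28 alternative settings the log2FC of Acan ran from 1.73 to 2.28 and its adjusted p from 3.34e-09 to 0.389. Hapln1 (ENSMUSG00000021613.9, chr13:89539796-89611652, plus strand) stood at 10.7, 12.3, 7.65, 7.73 and 9.24 CPM without load and at 20.7, 6.74, 11.8, 65.8 and 16.2 CPM with load. Loaded library 5 alone lay far above the rest, and loaded library 2 lay below every unloaded library. Its log2FC was 1.32 (SE 0.512, edgeR adjusted p = 0.455), and without loaded library 5 it was 0.51 (edgeR adjusted p = 0.418).

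The regulator Sox9 (ENSMUSG00000000567.5, chr11:112782224-112787760, plus strand) stood at 7.29, 10.1, 15.8, 6.95 and 12 CPM without load and at 46.2, 17.3, 16.6, 21.6 and 41.3 CPM with load. The groups did not overlap, although loaded library 4 (16.6 CPM) and unloaded library 4 (15.8 CPM) were close. The log2FC was 1.42 (SE 0.322, edgeR adjusted p = 0.229; DESeq2 adjusted p = 0.00602), with adjusted p-values from 0.000599 to 0.511 over the alternatives. The DESeq2 call was lost without the unnumbered loaded library (log2FC 1.27, DESeq2 adjusted p = 0.0524). Its partners in chondrocyte differentiation, Sox5 and Sox6, had log2FC values of -0.31 (SE 0.212) and -0.15 (SE 0.161), with edgeR adjusted p-values of 0.623 and 0.753.

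The 3 matrilins had very different levels. Matn4 (ENSMUSG00000016995.17, chr2:164389393-164405160, minus strand) stood at 8.88, 9.23, 12, 9.79 and 10.6 CPM without load and at 38.6, 23.9, 20, 11.8 and 32.0 CPM with load. Loaded library 5, the highest for Hapln1, was the lowest for Matn4 and fell within the unloaded range. The log2FC of Matn4 was 1.29 (SE 0.251, edgeR adjusted p = 0.179; DESeq2 adjusted p = 0.00121; range over the alternatives 1.44e-07 to 0.445). Without loaded library 5 the log2FC was 1.47 and Matn4 passed the edgeR test as well (adjusted p = 0.0474). Matn4 shares 149 of its 5174 exon bases with Rbpjl on the opposite strand, and Rbpjl stood at 1.47 to 3.31 CPM in the vehicle libraries.

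Matn3 (ENSMUSG00000020583.4, chr12:8947929-8972028, plus strand) had 6, 3, 9, 8 and 10 counts in the unloaded vehicle libraries, and 92, 23, 7, 140 and 46 counts in the loaded ones. Loaded library 4 lay within the unloaded range and the other 4 lay above it. Matn3 did not pass the filter in the fit of these 10 libraries, and in a fit without the filter its log2FC was 3.00 (SE 0.571, edgeR adjusted p = 0.0317), where 0.117% of 42708 genes were called. Matn1 (ENSMUSG00000040533.7, chr4:130944385-130955475, plus strand) had 3 counts in the 5 unloaded and 8 in the 5 loaded vehicle libraries, 5 of them in loaded library 5. At this depth no difference in Matn1 was detectable, and no fold is given.

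Chad was the exception in direction. Chad (ENSMUSG00000039084.8, chr11:94565047-94569127, plus strand) stood at 164, 169, 124, 152 and 229 CPM without load and at 95, 34.8, 85.2, 133 and 96.2 CPM with load. All 5 loaded libraries lay below the unloaded mean of 168 ± 38.5 CPM, while loaded library 5 (133 CPM) overlapped unloaded library 4 (124 CPM). The log2FC was -0.94 (SE 0.284, edgeR adjusted p = 0.359; DESeq2 adjusted p = 0.101; range over the alternatives 0.00661 to 0.686). With DESeq2, Chad passed as lower without unloaded library 4 (adjusted p = 0.0400), loaded library 2 (0.0419) or loaded library 5 (0.00661), and not without any of the other 7 libraries. The gene lies inside Acsf2 on the opposite strand with 0 shared exon bases, and Acsf2 was at 16.6 to 30.5 CPM in the vehicle libraries, below Chad in every one of them.

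Comp and Prg4, the most abundant of the genes with a positive log2FC, had the smallest values of that sign. Comp (ENSMUSG00000031849.9, chr8:70373558-70382066, plus strand) stood at 157, 163, 273, 226 and 334 CPM without load and at 515, 148, 361, 261 and 482 CPM with load. Loaded library 2 had the lowest value of all 10 libraries. The log2FC was 0.59 (SE 0.305, interval -0.11 to 1.29, edgeR adjusted p = 0.536). Prg4 (ENSMUSG00000006014.16, chr1:150449412-150466165, minus strand) stood at 281, 339, 400, 304 and 238 CPM without load and at 452, 111, 509, 179 and 860 CPM with load. The loaded libraries lay on both sides of the unloaded range, 3 above and 2 below it. The log2FC of Prg4 was 0.40 (SE 0.425, interval -0.58 to 1.38, edgeR adjusted p = 0.748), and it was -0.02 without the unnumbered loaded library. Prg4 shares 204 of its 4280 exon bases with Tpr on the opposite strand, which stood at 399 to 484 CPM in the vehicle libraries. Ucma (ENSMUSG00000026668.10, chr2:4976122-4985748, plus strand) had 0 to 6 counts per unloaded and 1 to 15 per loaded vehicle library, and without the filter its log2FC was 1.14 (SE 0.787, edgeR adjusted p = 0.672).

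**Figure D2:**
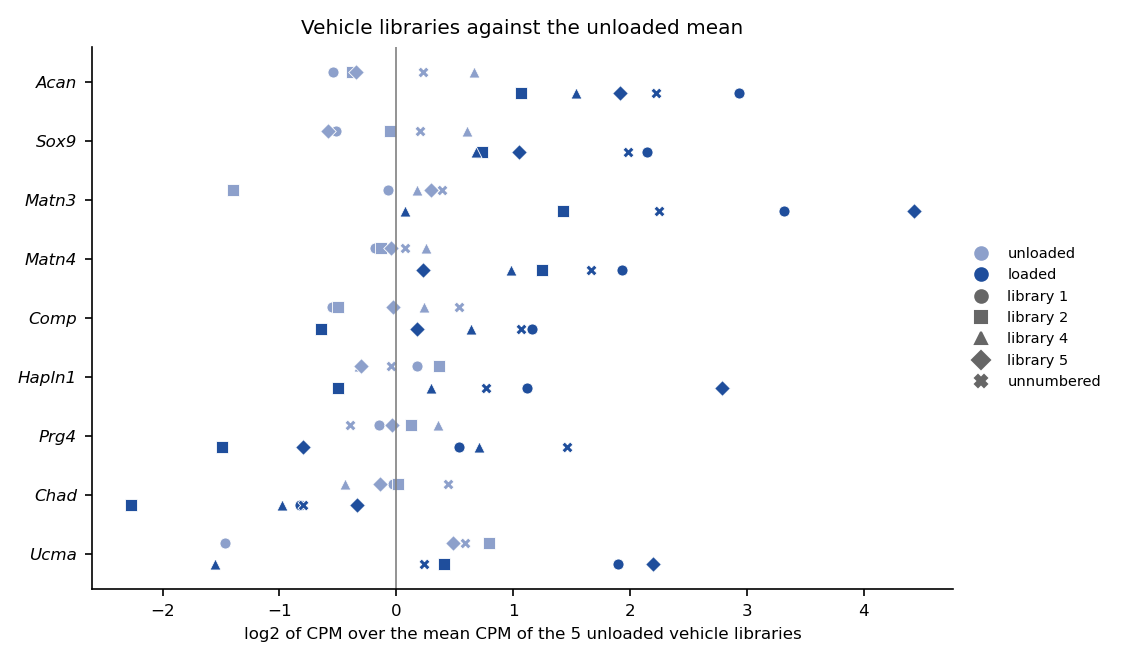
CPM of each vehicle library divided by the mean of the 5 unloaded vehicle libraries, on a log2 axis; light markers are unloaded and dark markers loaded libraries, shapes give the library number, Matn1 is left out and 1 unloaded Ucma library at 0 is not drawn. All 5 loaded libraries lie above the unloaded mean for Acan, Sox9, Matn3 and Matn4, and all 5 lie below it for Chad.

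The loaded libraries also ranked differently from gene to gene. Loaded library 1 was the highest of its group for Acan, Sox9, Matn4 and Comp. Loaded library 5 was the highest for Matn1, Matn3, Hapln1, Chad and Ucma, and the unnumbered library for Prg4. The collagens Col2a1, Col9a1, Col9a2, Col9a3 and Col10a1 were also highest in loaded library 5, Col27a1 and Col11a1 in loaded library 1 and Col11a2 in loaded library 2. The ratio of the highest to the lowest loaded library was 2.78 for Sox9, 3.63 for Acan, 9.77 for Hapln1 and 20.7 for Matn3. A gene that was high in a loaded tibia was therefore not always high together with the others in the same tibia.

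Markers of other tissues also differed between the vehicle groups. The 7 tendon and ligament fibroblast markers summed to 2350 to 4790 CPM with load and 1480 to 2990 CPM without, all 7 had a positive log2FC, and their median was 0.69. Loaded library 1 had the highest tendon sum (4790 CPM), as it had for Acan, Sox9, Matn4 and Comp. The 9 chondrocyte markers outside the 10 genes summed to 1260 to 2860 CPM with load, highest in loaded library 5, and to 722 to 3590 CPM without. Col11a2 had the largest part in these sums, with means of 1140 CPM with load and 1570 CPM without. Of the 9 markers, 7 were tested, 6 had a positive log2FC with a median of 2.73, and DESeq2 called 3 higher. Skeletal muscle markers summed to 8730 to 45300 CPM with load and 18400 to 94500 CPM without, and all 8 had a negative log2FC (median -1.15). Osteoblast markers were negative in 8 of 8 (median -0.41; 5 at an unadjusted p under 0.05, 2 called lower by DESeq2), and osteocyte markers in 7 of 7 tested (median -0.28). Background reads had a median of 284 CPM with load (232 to 914) and 786 CPM without (347 to 1280). Synovial lining markers, 4 genes, summed to 102 to 120 CPM with load and 102 to 157 CPM without. None of the genes of these lists was at 0 in all libraries, and the part of tissue content in the results was not tested. With the background reads as a covariate, the log2FC for loading was 1.81 for Acan (adjusted p = 0.131), 1.08 for Sox9 (0.352), 0.98 for Matn4 (0.258) and -0.86 for Chad (0.620), with 0 genes called. In bulk tissue, fewer cells of a type and less RNA per cell cannot be told apart.

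Other cartilage genes were read from fixed lists, of which edgeR called 0 genes under vehicle in each. Of the 8 cartilage collagens, 6 had a positive log2FC and DESeq2 called 4 higher, and the median was 1.68. Col9a3, a chain of the fibril-associated type IX collagen, had a log2FC of 3.66 (SE 0.792, edgeR adjusted p = 0.220), and Col27a1, a cartilage fibrillar collagen, had 1.12 (SE 0.244, edgeR adjusted p = 0.220). Col2a1, the main cartilage collagen, had 0.85 (SE 0.447, edgeR adjusted p = 0.541), with overlapping groups. Of 18 enzymes and carriers that build and sulfate chondroitin chains, 15 had a positive log2FC with a median of 0.25, and DESeq2 called 1 of them, Csgalnact1 (log2FC 0.71, SE 0.177, DESeq2 adjusted p = 0.0487). Xylt1, which starts the chain, had a log2FC of 0.40 (SE 0.121, edgeR adjusted p = 0.360).

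Of the 9 genes for aggrecan-cleaving proteases and their inhibitors, 7 had a positive log2FC (median 0.40). DESeq2 called 2 higher and 1 lower, with the stromelysin Mmp3 at a log2FC of 2.20 (SE 0.417, DESeq2 adjusted p = 0.000301) and the inhibitor Timp3 at -0.58 (SE 0.138, DESeq2 adjusted p = 0.0157). The aggrecanase Adamts4 had a log2FC of 1.15 (SE 0.402, edgeR adjusted p = 0.415). Of the hyaluronan genes, Has2 had a log2FC of 1.46 (SE 0.512, edgeR adjusted p = 0.416), Has1 0.02 (SE 0.298), Has3 -0.10 (SE 0.173) and the receptor Cd44 -0.19 (SE 0.132). Of 12 other cartilage matrix proteins 8 were tested, with 5 positive values and a median of 0.28. Cnmd, the chondrocyte protein chondromodulin, had a log2FC of 3.58 (SE 0.990, edgeR adjusted p = 0.316), and the cartilage lectin Clec3a had -1.45 (SE 0.417, edgeR adjusted p = 0.336), so Chad was not alone in its direction. Of 7 tested cartilage regulators, 3 were positive and DESeq2 called 0, with the transcription factor Trps1 at 0.24 (SE 0.126) and the ubiquitin ligase Wwp2 at 0.21 (SE 0.118). Of 6 tested growth plate signalling genes, 3 were positive and DESeq2 called 1, the channel gene Panx3 (log2FC 1.2, SE 0.296, DESeq2 adjusted p = 0.0267), while Gli1, a Hedgehog target, had -0.60 (SE 0.18, edgeR adjusted p = 0.358).

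**Figure D3:**
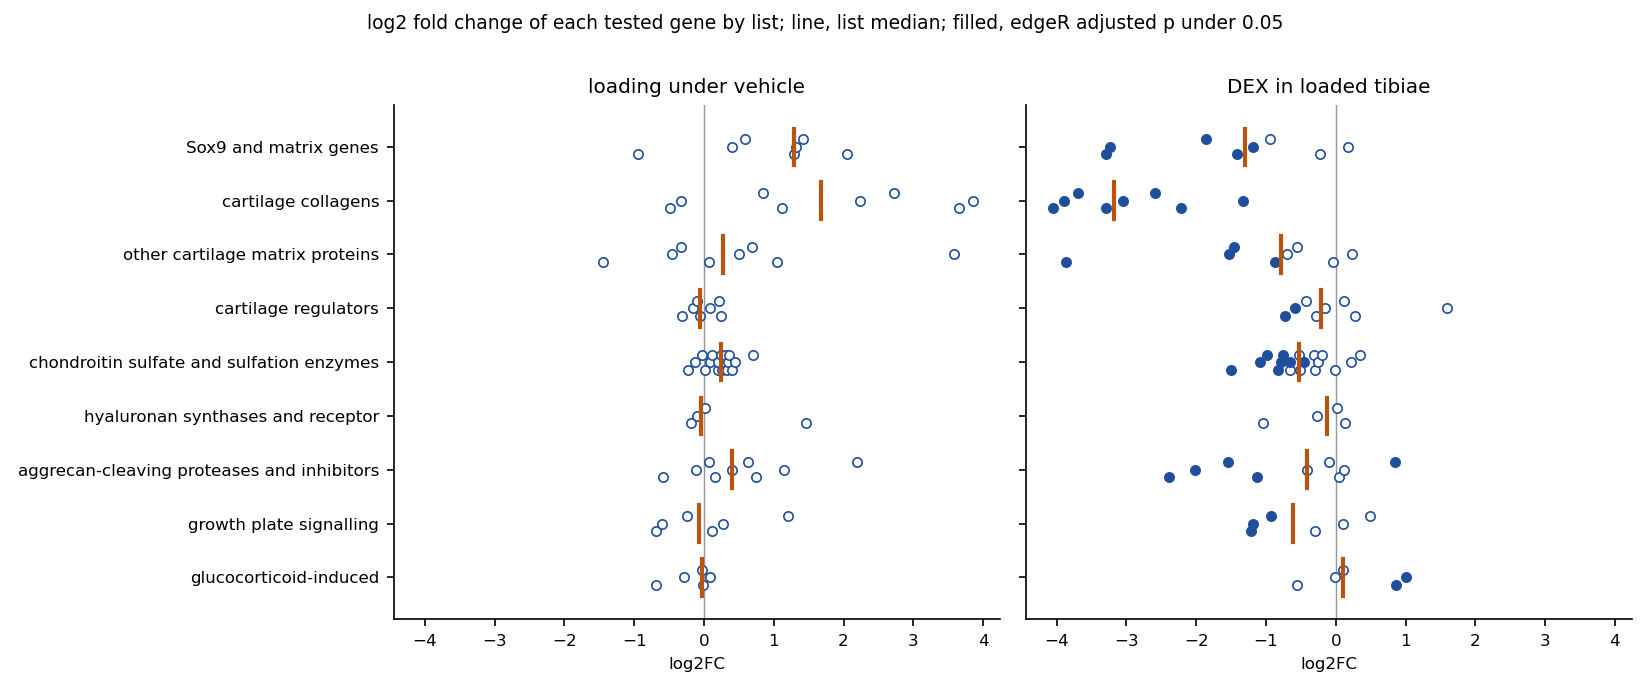
log2FC of each tested gene of the fixed lists for loading under vehicle and for DEX in loaded tibiae; each circle is a gene, filled where the edgeR adjusted p was under 0.05, and the vertical line is the median of the list. Under vehicle no circle is filled and the collagen median is 1.68, while in the DEX comparison all 8 collagens are filled with a median of -3.17. Among these, Col9a1 passed the filter mostly through the loaded vehicle libraries.

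Under DEX, no gene passed a test for loading. Of the 7 genes tested, 2 had a positive log2FC, against 52.1% of all genes, and 0 had groups that did not overlap, against 1.25%. Further, 0 had an adjusted p under 0.05 with edgeR or with DESeq2 and 0 had an unadjusted p under 0.05, against 4.25% of the 22541 genes tested at an unadjusted p under 0.05 and 0% at an adjusted p. Acan stood at 52.6, 46.4, 39.0 and 22.1 CPM in unloaded DEX libraries 1, 2, 3 and 5 and at 37.4, 55.3, 36.0, 21.9 and 22.1 CPM in loaded libraries 1 to 5. These values overlapped fully, and the log2FC of Acan was -0.22 (SE 0.288, interval -0.90 to 0.46, edgeR adjusted p = 0.762). Sox9 stood at 10.6, 12.1, 11.9 and 10.0 CPM without load and 8.86, 10.9, 11.5, 12.1 and 8.45 CPM with load. Its log2FC was -0.13 (SE 0.170, interval -0.53 to 0.27, edgeR adjusted p = 0.759), so the upper bound lay below the 1.42 measured under vehicle. The largest positive value was that of Matn4, with 7.36 ± 4.20 CPM without (n = 4) and 10.9 ± 5.84 CPM with load (n = 5) and a log2FC of 0.52 (SE 0.387, interval -0.39 to 1.44, edgeR adjusted p = 0.733). The Matn4 log2FC was 0.24 without loaded DEX library 4, which stood highest at 19.8 CPM, and ran from 0.06 to 0.96 over the alternatives. Chad again had the lowest value, -0.52 (SE 0.369, interval -1.39 to 0.35, edgeR adjusted p = 0.733), with 98.4 ± 49.0 CPM loaded against 140 ± 54.4 CPM unloaded. Hapln1 (-0.23, SE 0.291), Comp (-0.13, SE 0.362) and Prg4 (0.04, SE 0.355) lay near 0, and Comp and Prg4 changed sign under several settings. Of the cartilage collagens 7 of 8 had a negative log2FC (median -0.73; 2 at an unadjusted p under 0.05), and so had 8 of 8 osteoblast markers (median -0.97), while 7 of 8 muscle markers (median 1.02) and 5 of 7 tendon markers (median 0.28) had a positive one. edgeR called 0 genes of these lists, and their part in the result was not tested. Matn3 had 26 counts in the 5 loaded and 27 in the 4 unloaded libraries, of which 16 came from loaded library 4 and 14 from unloaded library 1.

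DEX was then compared with vehicle. In loaded tibiae of DEX-treated mice, Acan, Sox9, Matn4 and Hapln1 fell relative to vehicle, and Chad, Prg4 and Comp did not pass the edgeR test. These were 4 of 7 genes, with Matn3 set apart because the filter admitted it mostly through the group where it was high, where 21.3% of the 19780 genes tested were called and 8.35% were called lower. Acan fell from 333 ± 169 to 34.5 ± 13.7 CPM (SD, n = 5 each), with no overlap between the groups, and its log2FC was -3.23 (SE 0.359, edgeR adjusted p = 0.000344; range over the alternatives 6.6e-19 to 0.0656). Sox9 fell from 28.6 ± 14.1 to 10.4 ± 1.63 CPM, again with no overlap (log2FC -1.42, SE 0.285, edgeR adjusted p = 0.00777; range 4.19e-05 to 0.449). Acan and Sox9 were thus the 2 genes whose groups did not overlap, where 8.85% of all genes had loaded DEX values wholly below loaded vehicle values. Hapln1 fell from 24.2 ± 23.8 to 6.5 ± 1.54 CPM (log2FC -1.86, SE 0.510, edgeR adjusted p = 0.0239). Without loaded vehicle library 5 its log2FC was -1.08 (adjusted p = 0.0232), and without loaded DEX library 4 the call was lost (-1.80, adjusted p = 0.0519).

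Of the matrilins, Matn4 fell from 25.3 ± 10.4 to 10.9 ± 5.84 CPM (log2FC -1.18, SE 0.362, edgeR adjusted p = 0.0356). This call was lost, with adjusted p-values from 0.0526 to 0.0752, without loaded DEX library 1, 3 or 5, loaded vehicle library 1 or the unnumbered loaded vehicle library. Matn3 stood at 6.72 ± 6.97 CPM in loaded vehicle and 0.715 ± 1.02 CPM in loaded DEX libraries (log2FC -3.29, SE 0.887, edgeR adjusted p = 0.0227). It passed the filter through loaded vehicle libraries 1, 2, 5 and unnumbered (23 to 140 counts) and loaded DEX library 4 (16 counts), and its values are given as a description, with no weight on the call. Comp stood at 353 ± 153 and 179 ± 80.5 CPM (log2FC -0.94, SE 0.383, edgeR adjusted p = 0.0920). DESeq2 called it lower (adjusted p = 0.0438), where it called 11% of all genes lower. edgeR did so with no filter (log2FC -1.09, adjusted p = 0.0295), with all 4 groups in the model (-1.02, adjusted p = 0.0301) and without loaded vehicle library 2 (-1.18, adjusted p = 0.0449). With the background reads as a covariate the log2FC of Comp was -0.04 (edgeR adjusted p = 0.988), the smallest in size over the alternatives. Prg4 had a log2FC of -0.22 (SE 0.478, interval -1.33 to 0.88) and Chad of 0.18 (SE 0.370, interval -0.68 to 1.03), with edgeR adjusted p-values of 0.758 and 0.752. Matn1 and Ucma were not tested, with 6 and 15 counts in the 5 loaded DEX libraries against 8 and 39 in the 5 loaded vehicle libraries.

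These calls stood beside a difference in library content. Background reads in the receptor genes of the nasal epithelium came to 1090 to 8880 CPM in loaded DEX and 232 to 914 CPM in loaded vehicle libraries. With this background as a covariate 0 of the 8 genes tested were called and 28 of all genes. The log2FC was then smaller in size for Acan (-2.46, adjusted p = 0.0656) and Sox9 (-0.94, adjusted p = 0.449) and larger for Matn3 (-5.44, adjusted p = 0.102), Matn4 (-1.61, adjusted p = 0.332) and Hapln1 (-2.56, adjusted p = 0.175). As the ranges do not overlap, background and treatment cannot be told apart in this comparison. Osteoblast markers summed to 4570 to 23000 CPM in loaded DEX and 63500 to 95000 CPM in loaded vehicle libraries, with 8 of 8 called lower (median -2.47). The 7 tendon markers were lower by a median of -1.87 with 5 called, and the 6 periosteal markers by -1.70 with 6 called. Of the chondrocyte markers outside the 10 genes, 6 of 7 tested were called lower (median -3.69). Among these, Cnmd (41 counts in loaded DEX, 672 in loaded vehicle libraries) and Col9a1 (58 and 1079 counts) passed the filter mostly through the loaded vehicle libraries. No weight is put on the calls of Cnmd and Col9a1. Of the neutrophil markers 7 of 8 were called higher (median 1.02), and of the B cell markers 7 of 8 were called lower (median -1.67). The part of these shifts in the results was not tested. Of 5 genes that glucocorticoids induce, Fkbp5 (log2FC 0.87, SE 0.175, edgeR adjusted p = 0.00777) and Zbtb16 (1.01, SE 0.213, adjusted p = 0.00930) rose, and Tsc22d3, Per1 and Sgk1 did not pass.

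The lists of related genes gave the following counts in loaded tibiae. All 8 cartilage collagens were called lower (median -3.17, against 0 over all genes), with Col2a1 at -3.69 (SE 0.553, edgeR adjusted p = 0.00188) and Col11a1 at -3.05 (SE 0.377, adjusted p = 0.000583). Col9a1, 1 of the 8, had 58 counts in the loaded DEX libraries and 1079 in the loaded vehicle libraries. It passed the filter mostly through the latter, so no weight is put on its call. Of the 18 chondroitin sulfate genes 8 were called lower and 0 higher (median -0.52), among them the polymerising factor Chpf at -1.09 (SE 0.196, adjusted p = 0.00450) and the sulfotransferase Chst3 at -1.50 (SE 0.282, adjusted p = 0.00574). Of the 9 protease and inhibitor genes 4 were called lower and 1 higher, with Adamts9 at -1.13 (SE 0.159, adjusted p = 0.00130), the inhibitor Timp1 at -2.02 (SE 0.291, adjusted p = 0.00156) and Timp3, the gene called higher, at 0.85 (SE 0.181, adjusted p = 0.00942). Of 8 other matrix proteins tested 4 were called lower, including Fmod at -1.53 (SE 0.320, adjusted p = 0.00920) and Matn2, the matrilin outside the 10 genes, at -1.46 (SE 0.312, adjusted p = 0.00985). Trps1 (-0.73, SE 0.174, adjusted p = 0.0145) and Wwp2 (-0.59, SE 0.148, adjusted p = 0.0171) were the 2 genes called lower of the 8 cartilage regulators. Of 6 growth plate genes 3 were called lower, including the receptors Fgfr3 at -0.93 (SE 0.155, adjusted p = 0.00302) and Pth1r at -1.22 (SE 0.204, adjusted p = 0.00306). Of the 4 hyaluronan genes 0 were called, with Has2 at -1.04 (SE 0.541, adjusted p = 0.179), Cd44 at -0.27 (SE 0.158), Has3 at 0.13 (SE 0.199) and Has1 at 0.02 (SE 0.342).

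In unloaded tibiae, Acan was the gene of the 7 tested whose DEX and vehicle libraries did not overlap. With edgeR 0 of 7 genes tested were called, 1 had a negative log2FC at an unadjusted p under 0.05, and DESeq2 called 1 lower. Over the 19738 genes tested, edgeR called 6.84%, 13.4% were lower at an unadjusted p under 0.05, and DESeq2 called 7.46% lower. That gene was Acan, at 40.0 ± 13.2 CPM (n = 4) against 79.1 ± 29.9 CPM (n = 5) with no overlap, which held in the downward direction for 6.4% of all genes. Its log2FC was -0.98 (SE 0.274, interval -1.63 to -0.33, edgeR adjusted p = 0.0527; DESeq2 adjusted p = 0.0103; range over the alternatives 0.00539 to 0.249). Adding unloaded DEX library 4, at 30.5 CPM, brought Acan under the threshold with edgeR (log2FC -1.04, adjusted p = 0.0205). Sox9 stood at 11.1 ± 0.979 against 10.4 ± 3.66 CPM, with a log2FC of 0.10 (SE 0.228, interval -0.43 to 0.64, edgeR adjusted p = 0.808). Matn4 (-0.46, SE 0.282), Hapln1 (-0.33, SE 0.272), Chad (-0.26, SE 0.245), Comp (-0.24, SE 0.239) and Prg4 (0.11, SE 0.213) had adjusted p-values from 0.336 to 0.779. Without unloaded DEX library 1, Matn4 passed the edgeR test (log2FC -0.90, adjusted p = 0.0253). Background reads were at 812 to 3260 CPM in the unloaded DEX and 347 to 1280 CPM in the unloaded vehicle libraries. By edgeR, osteoblast markers were called lower in 6 of 8 (median -1.98), periosteal markers lower in 6 of 6 (median -1.93) and neutrophil markers higher in 6 of 8 (median 1.03). Muscle markers had a negative log2FC in 8 of 8 (median -1.70), with 0 called by edgeR, 1 called lower by DESeq2 and 5 lower at an unadjusted p under 0.05 with edgeR. Tendon markers were negative in 7 of 7 with 2 called (median -0.92), and osteocyte markers in 7 of 7 tested with 3 called (median -0.74). Of 7 tested chondrocyte markers outside the 10 genes, 4 had a positive log2FC (median 0.38) and edgeR called 0. Of the 8 cartilage collagens 5 were negative and edgeR called 1 lower (median -0.34). With the background covariate the Acan log2FC was -0.77 (adjusted p = 0.184), and over all alternatives it ran from -1.12 to -0.57. The part of the marker differences in the Acan value was not tested. Of the 5 genes that glucocorticoids induce, 4 had a negative log2FC. edgeR called 0 of them higher and Sgk1 lower (-0.63, SE 0.152, edgeR adjusted p = 0.0318), with Fkbp5 at 0.81 (SE 0.236, edgeR adjusted p = 0.0603). DESeq2 called 1 of the 5 higher and 1 lower.

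**Figure D4:**
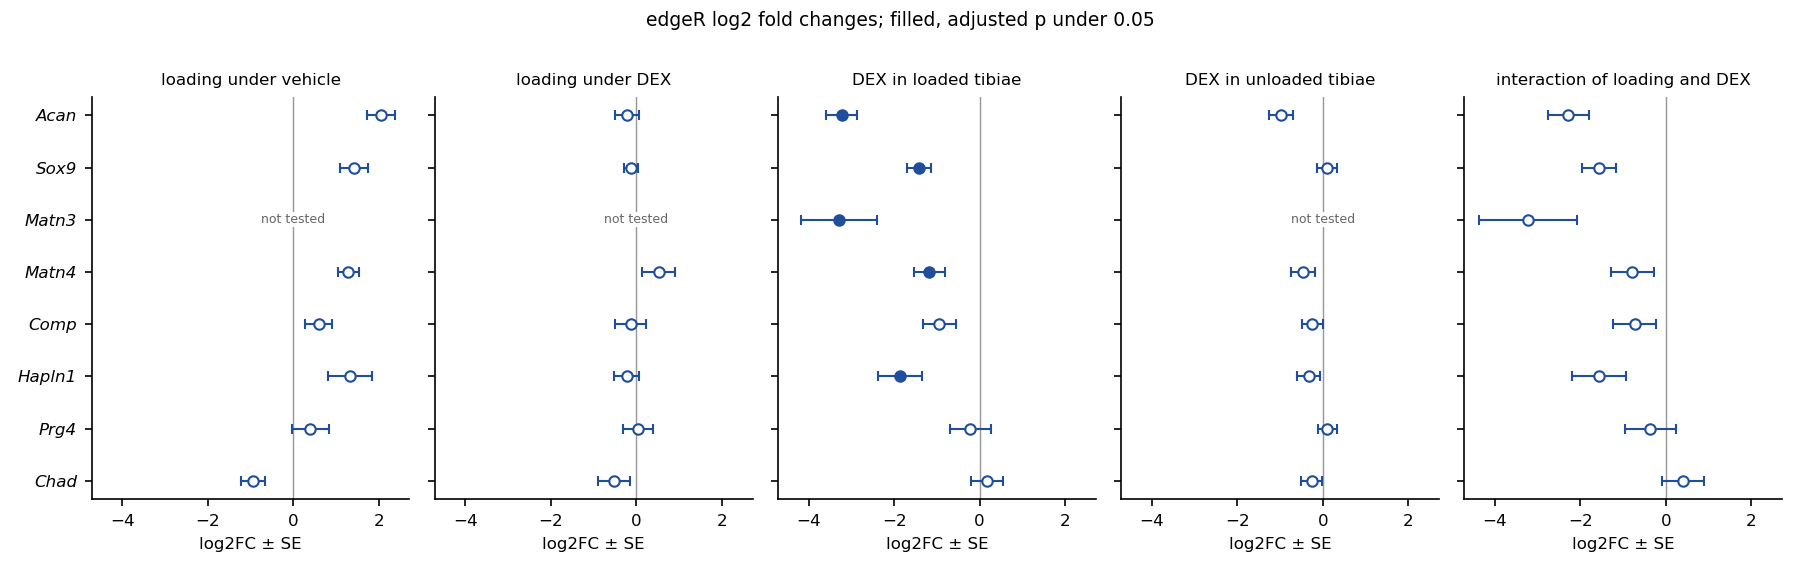
edgeR log2FC ± SE of the 8 genes tested in at least 1 of the 4 comparisons or in the interaction; filled circles have an adjusted p under 0.05, and genes that did not pass the filter are marked as not tested. Filled circles occur only for DEX in loaded tibiae, at Acan, Sox9, Matn3, Matn4 and Hapln1, and Chad is the gene with a negative value for loading under vehicle.

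The difference between the loading responses under DEX and under vehicle was tested as the interaction over 23653 genes in 19 libraries. edgeR called 0 of the 8 genes tested and 0% of all genes. Leaving aside Matn3, which passed the filter mostly through the loaded vehicle libraries (308 counts, against 26 to 36 in each other group), 3 of 7 genes, Acan, Sox9 and Hapln1, had an unadjusted p under 0.05 with a lower response under DEX, where 3.17% of all genes met that criterion. Acan had the smallest p of the genes tested, with an interaction log2FC of -2.28 (SE 0.480, interval -3.30 to -1.26, edgeR adjusted p = 0.211). DESeq2 called Acan (adjusted p = 0.00647), as it did 0.0169% of all genes with a lower response, with adjusted p-values from 0.00647 to 0.538 under other settings. Without unloaded DEX library 5 the edgeR test also called it (log2FC -2.51, adjusted p = 0.0411). Sox9 had -1.57 (SE 0.396, interval -2.42 to -0.73, edgeR adjusted p = 0.323), Matn3 -3.23 (SE 1.15, adjusted p = 0.379) and Hapln1 -1.56 (SE 0.632, adjusted p = 0.393). Without loaded vehicle library 5 the Hapln1 value was -0.75 (adjusted p = 0.348). Matn4 (-0.78, SE 0.493), Comp (-0.73, SE 0.507) and Prg4 (-0.36, SE 0.593) had intervals that included 0. Chad had a positive value of 0.41 (SE 0.494, interval -0.64 to 1.46, edgeR adjusted p = 0.661). All 8 cartilage collagens had a negative interaction value (median -2.52; 6 at an unadjusted p under 0.05, 1 called by DESeq2), as did all 8 tested chondrocyte markers outside the 10 genes (median -2.64; 5 at an unadjusted p under 0.05, 1 called by DESeq2) and all 7 tendon markers (median -0.77). Among the collagens and chondrocyte markers, Col9a1 had 1079 counts in the loaded vehicle libraries against 58 to 75 in each other group, and Cnmd had 672 against 41 to 80. All 8 skeletal muscle markers had a positive value (median 2.30) with an unadjusted p under 0.05. edgeR called 0 genes of these lists, and the part of tissue content in the result was not tested.

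The genes whose pattern was most like that of the 8 tested genes were found by Pearson's r of log2 CPM over the 19 libraries, as a description in which differences between the groups and between tibiae are mixed. Acan was most like Srpx2 (r = 0.955), Col6a1 (0.955) and Col6a2 (0.952), the last 2 of which encode chains of type VI collagen. Sox9 was most like Slc27a3 (0.911), Pofut1 (0.897) and Col27a1 (0.890). Comp was most like Lrp1 (0.923), Dhrs3 (0.918) and Itgb5 (0.904). Matn3 was most like Col9a1 (0.951), Col9a2 (0.927) and Col10a1 (0.902), and Hapln1 like Col10a1 (0.911), Col9a2 (0.875) and Crispld1 (0.845), with cartilage collagens in both. Matn4 was most like Aplnr (0.911), Hoxc8 (0.907) and Megf6 (0.893), and Chad like Cytl1 (0.850), Myoc (0.792) and Vit (0.779). Prg4 had the weakest likeness, with Htra4 (0.742), A4galt (0.742) and Adamts5 (0.717).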

How the data were processed

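RNA was extracted from frozen, pulverised whole tibiae and made into stranded total RNA libraries. The authors deposited RSEM expected counts per gene (RSEM 1.2.28 on STAR 2.7.10a alignments to GRCm38, per the submitters' processing notes); the strand setting and annotation are not given in the sources used here. From 10.6% to 14% of values per library were not whole, and all were rounded. If counting ignored strand, reads in the few exon bases that Matn4 and Prg4 share with opposite-strand neighbours could be of either gene.

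The members and gene lists were chosen with earlier results of these data known. Groups came from the labels. In each vehicle group 1 column matched the group but no labelled number. The study removed a DEX library numbered 4 without saying which limb; the unloaded one was left out because its plots show 4 unloaded and 5 loaded DEX values, and this choice is an inference. No label says that libraries are from separate mice, so p-values measure the spread between these samples.

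Genes passing filterByExpr were fitted over the compared groups with edgeR 4.0.16 (R 4.3.3; TMM scaling, quasi-likelihood F test, Benjamini-Hochberg adjustment over all genes tested, threshold 0.05), after a check on simulated data. SE was obtained from the log2FC and its F statistic, and 95% intervals use the residual degrees of freedom. DESeq2 1.42.0 (Wald test) was run beside it. Alternatives were DESeq2 size factors, no filter, a model of all 4 groups, a background covariate, other choices of DEX library 4, a replicate block and leaving out each library. Besides the 10 genes, the 2 genes of each list with the smallest p were named, and whole lists of at most 4. Sox5, Sox6, Adamts4, the genes most like Matn3, Matn4, Hapln1 and Chad, and Col2a1 under vehicle were named after their values were seen, as were Timp3 in loaded tibiae and the glucocorticoid-induced genes outside the rule. Positions came from GENCODE annotation of GRCm38, which held all 10 genes, and promoter sequences from RefSeq, which covered 7.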

Additional observations from a re-analysis of the deposited data

Results flagged for a closer look

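Prg4 stood at 1570 CPM (14922 counts) in unloaded DEX library 4, which entered the tests above only in alternative settings. This was above Prg4 in all the other libraries, the next highest being the unnumbered loaded vehicle library at 860 CPM. With that library, unloaded DEX tibiae had 583 ± 561 CPM (SD, n = 5) in place of 336 ± 103 CPM (n = 4), and the log2FC of Prg4 for loading under DEX was -0.76 in place of 0.04. The log2FC for DEX in unloaded tibiae was 0.91 in place of 0.11, and the interaction was -1.17 in place of -0.36.

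Matn3 was lowest in unloaded vehicle library 2, with 3 counts against 6 to 10 in the other 4. On the scale of log2(CPM + 0.1) the gap to the next library was 0.722 of the range of the group. This was found among 31 combinations of gene and group, and chance gives such a gap in about 1 of 20.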

How the results depend on the processing

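Over the alternatives 823 values of single genes were computed, of which 720 kept their direction and their side of the threshold, 36 turned in direction, 16 lost and 51 gained a call. Genes called for loading under vehicle numbered 0 with edgeR, 3 with DESeq2, 4 with no filter on low counts and 1 in a joint fit of the 4 groups, and 0 to 1 with edgeR and 2 to 5 with DESeq2 (4, 4, 5, 4 and 4 without unloaded library 1, 2, 4, 5 and unnumbered, and 3, 5, 4, 5 and 2 without the loaded ones) when each library was left out. In 7 of those 10 DESeq2 fits, and with no filter, 1 of the calls was Matn3, which was not tested in the fit of all 10 libraries. For DEX in loaded tibiae 5 were called, or 4 without Matn3, 0 with the background covariate and 4 to 6 (3 to 5 without Matn3) when each library was left out. For DEX in unloaded tibiae 0 were called, 1 with DESeq2, 1 with no filter, 1 with all 20 libraries and 0 to 1 when each library was left out. For the interaction 0 were called, 1 with DESeq2 and 0 to 1 when each library was left out. Loading under DEX gave 0 throughout. The cause of these changes was not tested, except that leaving out a library lowers the number of samples.

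Whether equal replicate numbers mark the tibiae of the same mouse is not stated in the labels. Not every same-number pair had a positive correlation, so the block was kept as an alternative: deviations from the group means correlated at -0.177, -0.178, -0.301 and 0.246 under vehicle and at 0.361, 0.352, 0.023 and 0.345 under DEX. For DEX against vehicle the block joined equal numbers across treatments, which are different mice, so there it was not a pairing of limbs. With the replicate block, DEX in loaded tibiae had 3 genes called, and 2 in the same libraries without a block, a fit chosen after seeing the data, as was DESeq2 with libraries left out. Hapln1 lost its call with the block (log2FC -1.58, edgeR adjusted p = 0.0699) and without it (-2.09, edgeR adjusted p = 0.0582), as did Matn3. Matn4 lost its call without the block (-1.07, edgeR adjusted p = 0.125). With and without the block in those libraries, Prg4 turned to -0.35 and -0.11 for loading under vehicle, 0.37 and 0.27 for DEX in loaded tibiae, -0.06 and -0.02 for DEX in unloaded tibiae and 0.52 and 0.33 for the interaction, and Comp turned to 0.12 and 0.11 for loading under DEX and 0.06 and 0.08 for DEX in unloaded tibiae.

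For loading under DEX, Prg4 was 0.00 with no filter, -0.76 with all 20 libraries and -0.59 with loaded in place of unloaded DEX library 4 left out, and Comp was 0.06 in the last and 0.10 with the background covariate. With that covariate Prg4 was 0.54 for DEX in loaded and -0.12 in unloaded tibiae, where Comp was 0.16. When each library was left out, Prg4 ran from -0.02 to 0.64 (edgeR) or 0.65 (DESeq2) for loading under vehicle, -0.17 to 0.23 for loading under DEX, -0.51 to 0.16 for DEX in loaded tibiae, -0.04 to 0.23 in unloaded tibiae and -0.61 to 0.07 for the interaction. Comp ran from -0.30 to 0.11 and Hapln1 from -0.42 to 0.03 for loading under DEX, Chad from -0.08 to 0.37 for DEX in loaded and Sox9 from -0.02 to 0.29 for DEX in unloaded tibiae.

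Over all genes, calls for loading under vehicle numbered 0 with edgeR, 141 with DESeq2 (63 to 482 when each library was left out), 50 with no filter and 4 with all 4 groups. For DEX in loaded tibiae they numbered 4206, 9016 with no filter, 8446 with all 4 groups, 2326 with the block, 1120 in its libraries without it, 28 with the covariate and 2696 without the unnumbered loaded vehicle library. For DEX in unloaded tibiae they numbered 1351, 2411 with DESeq2, 2922 with all 20 libraries, 2592 with the covariate, 520 with the block, 566 in its libraries without it, and 129 without unloaded DEX library 3. For the interaction DESeq2 called 51, and edgeR 1 with no filter and 54 without unloaded DEX library 5, and loading under DEX had 39 without that library. Depth limits Matn1, Matn3 and Ucma, whose counts were few.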
